A study of Mus musculus with 8 samples.

Results

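Scarna9 and Scarna10, the rows of small Cajal body-specific RNAs (scaRNAs) in these mouse small RNA libraries, make up 2 of the 5518 rows that the deposited count tables share. They were chosen by name, as rows whose gene symbol starts with Scarna. The rule keeps at most the 10 such rows with the highest counts summed over all 8 libraries. That limit was not reached, so the summed counts removed no row. Those sums were 2561 for Scarna9 and 374 for Scarna10, which place them at ranks 150 and 249 of all rows and are given only as a description. The names also cover only part of the class. The gene annotation lists 51 genes typed as scaRNA, and 0 of them have a row of their own. Of its 9 genes named Scarna, 7 have no row.

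scaRNAs are guide RNAs that stay in Cajal bodies, nuclear bodies in which small nuclear RNAs (snRNAs) of the spliceosome mature. Box C/D guides direct 2′-O-methylation and box H/ACA guides direct pseudouridylation, and in both kinds a short stretch of the guide pairs with the target RNA and so selects the base that is changed. Scarna9 is known as a box C/D guide of U2, the snRNA that recognises the branch point, and is processed from a longer RNA. Scarna10, also called U85, joins a box C/D and a box H/ACA part and is known as a guide of U5, the snRNA that aligns the exons for joining.

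The libraries were made from cultured cells by a pair of methods. Mouse embryonic stem cells (MES, line B6G-2, grown without feeder cells and with leukemia inhibitory factor) gave 2 libraries by TEsR, which ligates linkers to total RNA, captures chosen small RNAs by hybridisation and avoids size selection; these were read on a MiSeq. Mouse embryonic fibroblasts (MEFs) gave 4 TEsR libraries and, with the standard TruSeq kit and a HiSeq, 2 more. All MEFs carried a conditional allele of TRF2, a telomere-capping protein, with Rosa26-CreERT2, a Cre recombinase expressed from the Rosa26 locus that 4-hydroxytamoxifen activates. Induction, given as 0.6 µM for 48 hours, applies to the TruSeq samples and to some of the MEF TEsR samples, while the MES cells are labelled as not induced. The 4 MEF TEsR columns carry codes (mmS1, mmS2, pmS1 and pmS2) that the labels do not explain, so induced and uninduced MEFs were kept in 1 group and were not compared. The TruSeq columns carry an index in place of a number and are called A and B here. Whether the libraries within a group stem from different cultures is not labelled, so the p-values of group comparisons measure only the spread between these libraries, which may be technical.

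The guide sequences show which bases the rows cover. Scarna9 (ENSMUSG00000077506) lies at chr9:15326264-15326333 of GRCm38 (mm10), on the minus strand, within an intron of Cep295, and its 70-base row is typed as snoRNA by the annotation. RefSeq gives the gene as 42 bases inside the same interval. The whole row is printed below from the annotation's transcripts, with the C box core TGATGA, the stretch that is complementary to U2 and the D box CTGA in capitals. The matching stretch of U2 follows, from the row Rnu2-10 at chr11:101658254-101658283, plus strand, with the paired bases in capitals.
Scarna9: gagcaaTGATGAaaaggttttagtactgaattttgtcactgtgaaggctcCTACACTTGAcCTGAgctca
Rnu2-10, bases 17 to 46: ttggctaagaTCAAGTGTAGtatctgttct
The longest perfect complement of Scarna9 and Rnu2-10 was 10 bases, Scarna9 bases 51 to 60 against U2 bases 27 to 36, and it ended just before the D box that starts at base 62. Box C/D guides methylate the target base opposite the fifth base upstream of the D box. That base is Scarna9 base 57, which faces A30 of U2, counted from the 5′ end of Rnu2-10. Of 303 other snoRNA rows within 20% of the length of Scarna9, 3 (0.99%) held a complement of U2 of at least 10 bases, so such a stretch is not particular to Scarna9.

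Scarna10 (ENSMUSG00000089617) lies at chr6:125186359-125186683 of GRCm38, minus strand, inside Ncapd2, and its row spans 325 bases. In that interval the annotation also places the sense-intronic transcript Gm28967 (281 shared bases) and an exon of the transcript Ncapd2-203 (237 shared bases), so reads of these RNAs and of Scarna10 cannot be told apart. RefSeq gives Scarna10 as 71 bases near the 3′ end of the row. The ends of the row are shown, since they carry the C box and the last D box. Capitals mark the C box core TGATGA in the first sequence and the D box CTGA in the second.
Scarna10, bases 1 to 40 (chr6:125186644-125186683): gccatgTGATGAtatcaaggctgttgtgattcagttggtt
Scarna10, bases 255 to 325 (chr6:125186359-125186429): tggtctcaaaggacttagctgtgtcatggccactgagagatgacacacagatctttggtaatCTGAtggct
The last D box of Scarna10 starts at base 317. The longest perfect complement of Scarna10 and U2 (Rnu2-10) was 7 bases, at Scarna10 bases 64 to 70, and did not lie just upstream of a CTGA.

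The guides were alike at their ends although they differ in length, but how many other snoRNA rows have such ends was not counted. In each of them the 6 bases before the C box and the 5 bases after the last D box hold a 4-base complement, bases 1 to 4 with bases 66 to 69 in Scarna9 and bases 1 to 4 with bases 321 to 324 in Scarna10. C box and last D box are 49 bases apart in Scarna9 and 304 in Scarna10. The core TGATGA occurs once on the own strand of each and on the other strand of neither, and 79.2% of the 303 snoRNA rows of a length like Scarna9 hold it. TGAG, the core of the Cajal body box known from H/ACA guides, occurs on the own strand of both, at base 63 of Scarna9, where it overlaps the D box, and at base 288 of Scarna10. It is also present on the own strand of 86.1% of the rows of a length like Scarna9. ACA was not found in the last 10 bases of either row, whose 3′ ends are box C/D ends, and 7.26% of the rows of a length like Scarna9 hold it there.

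Library totals ran from 2676776 to 3768668 counts in TEsR and were 8961221 and 8442960 in TruSeq. Snord68 and Snord70 took 76.2% to 83.1% of every TEsR library, and Gm23212 and AC161199.1 took 71.6% and 67.8% of the TruSeq libraries, so a level relative to the library total depends on a pair of other rows. Levels are CPM, counts scaled to the library total, and intervals are exact Poisson intervals at 95%, which cover counting error only, since no molecular identifiers were used. Of 15 rows of stem cell miRNAs (the miR-290 to 295 and miR-302 clusters), summed counts were 1294 and 1349 in the MES libraries, 0 to 5 in MEF TEsR and 0 in TruSeq. Of 9 rows of fibroblast miRNAs, they were 11 and 16 in MES, 407 to 3546 in MEF TEsR and 372 and 745 in TruSeq. The 8 rows of liver, blood, neuron and muscle miRNAs were at 0 in every library.

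Scarna9 was detected in all 8 libraries. MES replicate 1 held 19 counts (6.82 CPM, interval 4.11 to 10.7) and MES replicate 2 held 4 (1.49 CPM, 0.407 to 3.83). The MEF TEsR libraries held 33 counts in mmS1 (8.85 CPM), 24 in mmS2 (6.37 CPM), 44 in pmS1 (12.4 CPM) and 33 in pmS2 (10.2 CPM). TruSeq held 1271 counts in A and 1133 in B, or 142 and 134 CPM. The TruSeq libraries thus stood above all 6 TEsR libraries, and MES replicate 1 fell between the MEF TEsR libraries while MES replicate 2 was below all of them. The MES replicates differed by more than counting error (exact binomial test given their totals, p = 0.00271). Group means were 4.16 ± 3.77 CPM in MES (SD, n = 2), 9.48 ± 2.54 in MEF TEsR (SD, n = 4) and 138 ± 5.40 in TruSeq (SD, n = 2).

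Scarna10 was close to the detection limit in TEsR. Both MES libraries held 0 counts, which allows up to 1.08 and 1.12 CPM when 3 counts are taken as the limit. The MEF TEsR libraries held 5 counts in mmS1 (1.34 CPM), 1 in mmS2 (0.265 CPM), 4 in pmS1 (1.13 CPM) and 0 in pmS2, where the limit is 0.931 CPM. TruSeq held 127 counts in A and 237 in B, or 14.2 and 28.1 CPM, so Scarna10 was detected in 5 libraries and every TruSeq value was above every TEsR value. The TruSeq libraries differed from each other, with intervals of 11.8 to 16.9 CPM in A and 24.6 to 31.9 in B. Group means were 0.684 ± 0.652 CPM in MEF TEsR (SD, n = 4) and 21.1 ± 9.83 in TruSeq (SD, n = 2). For either guide, how many other rows also lie apart between the methods was not counted. Of the 352 rows tested between the methods in fibroblasts, 55.7% were called lower in TEsR (edgeR).

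**Figure D1:**
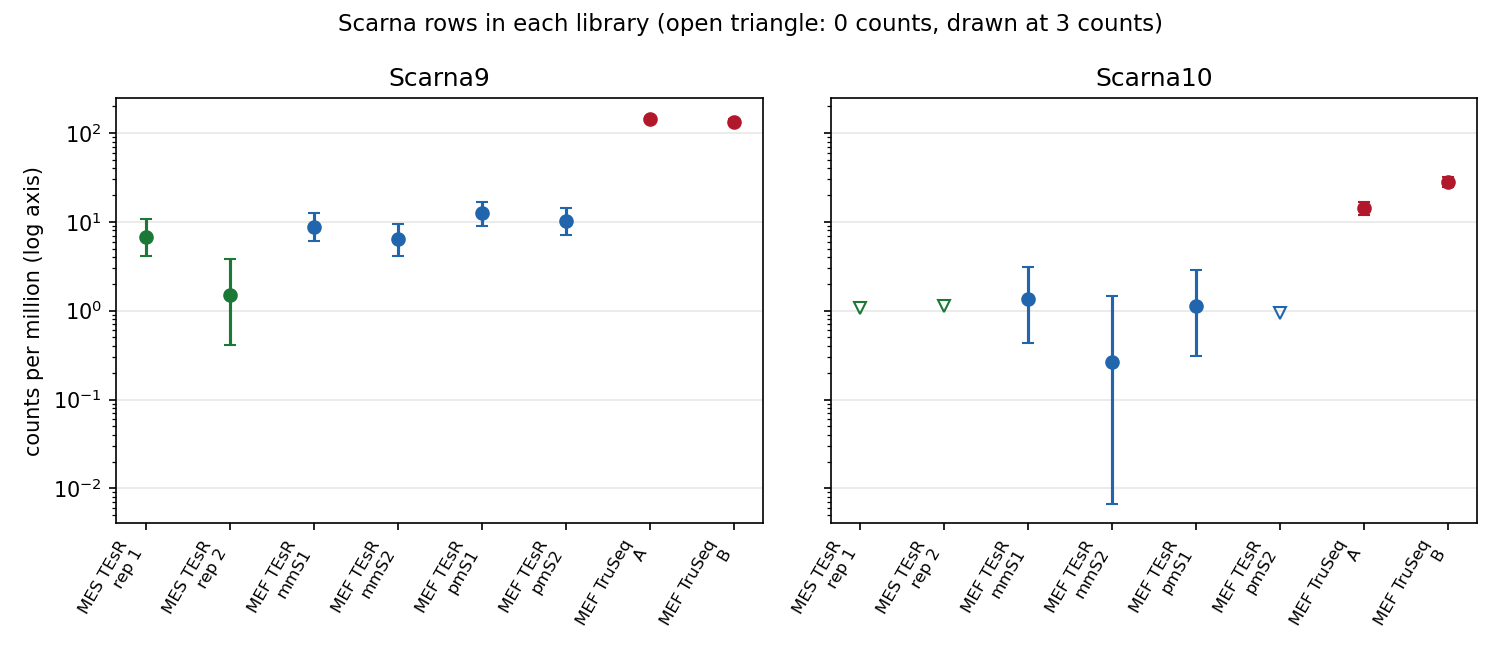
CPM (log axis) of Scarna9 (left) and Scarna10 (right) in each of the 8 libraries, with exact Poisson intervals at 95% as bars; open triangles mark libraries with 0 counts and are drawn at 3 counts. Both TruSeq libraries lie above all TEsR libraries for each RNA, and Scarna10 has 0 counts in 3 TEsR libraries.

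Per kilobase of row length, Scarna9 had the higher CPM in each of the 5 libraries that held both. Whether counts scale with row length in these libraries was not tested, so the ratios compare rows and not amounts of RNA. The ratio of Scarna9 to Scarna10 in CPM per kilobase was 46.5 in TruSeq A and 22.2 in TruSeq B. In the MEF TEsR libraries with counts of both it was 30.6, 111 and 51.1, but the highest of these rests on 1 count of Scarna10. Mean levels per kilobase were 59.4 CPM in MES, 135 in MEF TEsR and 1972 in TruSeq for Scarna9, against 2.11 in MEF TEsR and 65.0 in TruSeq for Scarna10. Among the snoRNA rows with counts, Scarna9 ranked 108 of 299 and 113 of 288 in TruSeq and 92 to 104 of 163 to 175 in MEF TEsR. It ranked 135 of 220 and 163 of 221 in the MES libraries. Scarna10 ranked 180 and 165 in TruSeq, and 127 to 142 in the 3 MEF TEsR libraries that held it. By this count Scarna9 stood in the upper part of the TruSeq lists and in the lower part of the TEsR lists.

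Between the methods in fibroblasts, both guides were lower in TEsR than in TruSeq. Mean CPM of Scarna9 was 14.6 times higher in TruSeq than in MEF TEsR (counting interval 12.3 to 17.6), and that of Scarna10 30.9 times higher (16.0 to 62.7). In edgeR's quasi-likelihood test with trimmed mean of M-values scaling and Benjamini-Hochberg adjustment over 352 rows, the log2 fold change of MEF TEsR over TruSeq was -3.28 ± 0.46 (SE) for Scarna9, adjusted p = 2.20e-05. For Scarna10 it was -4.31 ± 0.77 (SE), adjusted p = 1.55e-04, and Scarna10 passed the filter on low counts only through TruSeq. Of the 352 rows, 88.1% were called in either direction and 55.7% were called lower in TEsR, so a call of this kind was the usual outcome for a row. Scarna9 ranked 168 and Scarna10 ranked 143 from the most negative of the 352 fold changes. The median of all rows was -2.42 and that of the 218 snoRNA rows tested was -4.68, of which 166 were called lower and 23 higher, so both guides were less negative than the snoRNA median and more negative than that of all rows. When only snoRNA rows were fitted, the value for Scarna9 was -0.71 and no longer passed (adjusted p = 0.139), and that for Scarna10 was -1.75 (adjusted p = 0.0496). Method, instrument and table cannot be told apart here, nor can induction, since the TruSeq samples are all induced and the MEF TEsR group is mixed, and the sources used here do not say whether the capture probes covered these RNAs. The exact permutation test on CPM gave p = 0.133 for each guide (two-sided), the smallest that 4 against 2 libraries allow.

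**Figure D2:**
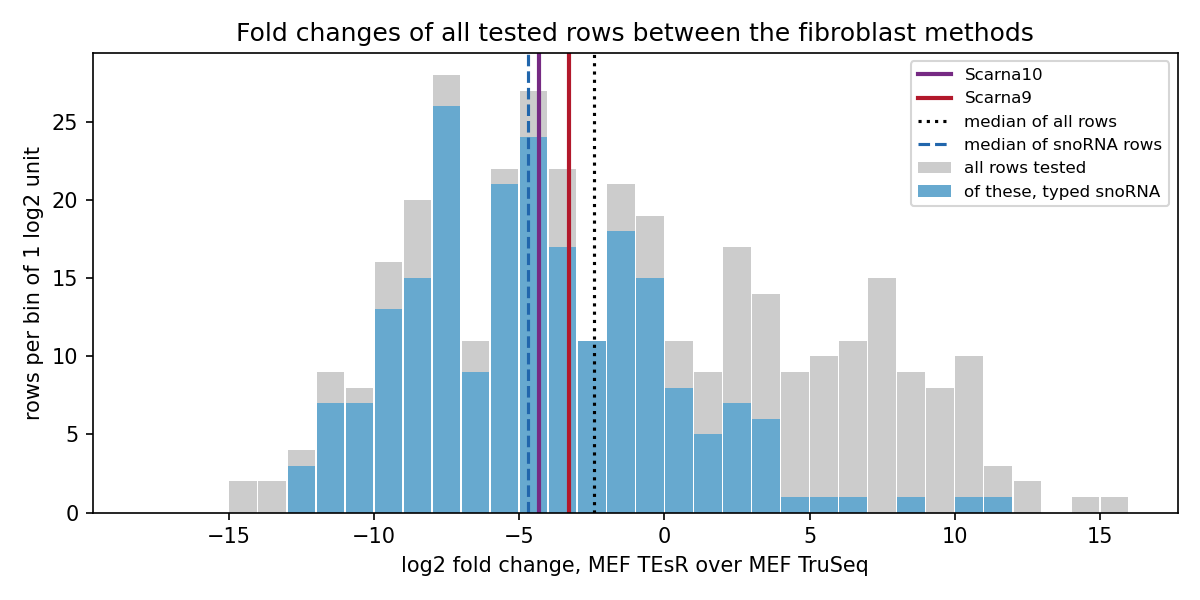
Number of rows per bin of 1 log2 unit of fold change, MEF TEsR over MEF TruSeq, for all 352 rows tested (grey) and the 218 of them typed as snoRNA (blue), with Scarna9, Scarna10 and the medians as vertical lines. Both guides lie between the snoRNA median of -4.68 and the median of all rows of -2.42.

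Between the cell types within TEsR, Scarna9 did not pass the test. Mean CPM was 2.28 times higher in MEFs than in MES cells (counting interval 1.43 to 3.64), but the spread between the MES libraries is not part of that interval. The edgeR log2 fold change of MES over MEF was -0.39 ± 0.66 (SE), adjusted p = 0.605, in a comparison in which 75.1% of 273 rows were called and 31.5% were called lower in MES. The median of all rows was 0.45 and that of the 150 snoRNA rows was 2.63. The value turned to 0.30 (adjusted p = 0.758) without MES replicate 2 and was -1.96 (adjusted p = 0.133) without MES replicate 1, so the direction rested on these libraries. Fitted among snoRNA rows only it was -1.94, adjusted p = 0.00976. Scarna10, with at most 5 counts in any of these libraries, did not pass the filter on low counts. It did not pass the test in either edgeR setting that gave it a value, no filter (adjusted p = 0.211) and 1 fit over all groups (adjusted p = 0.114). In such bulk samples fewer cells with an RNA and less RNA per cell cannot be told apart.

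Against TruSeq the MES libraries gave lower values for both guides. Mean CPM of Scarna9 was 33.2 times higher in TruSeq than in MES (counting interval 21.8 to 51.8), and the edgeR log2 fold change of MES over TruSeq was -3.70 ± 0.50 (SE), adjusted p = 2.09e-04. Scarna10 was at least 19.2-fold lower in MES by mean CPM, taking 3 counts per library as the limit, and was called lower (edgeR, adjusted p = 7.94e-04). On CPM, the exact permutation test gave p = 0.333 for each guide (two-sided), the smallest that 2 against 2 libraries allow. With 0 counts in MES, Scarna10 passed the filter on low counts only through TruSeq, so it could not have been called higher. In this comparison 86.6% of 352 rows were called and 50.0% were called lower in MES, with a median over all rows of -1.06. Scarna9 ranked 110 and Scarna10 ranked 15 from the most negative, but the fitted value of a row at 0 in a group is no measured size. Without MES replicate 1 the value of Scarna9 was -5.18, and without MES replicate 2 it was -2.75, with adjusted p of 0.00994 and 0.0145. Cell type, method, instrument and induction cannot be told apart here. The MES libraries also serve in the comparison within TEsR, and the TruSeq libraries in the comparison within MEFs, so these results are not independent of each other.

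**Figure D3:**
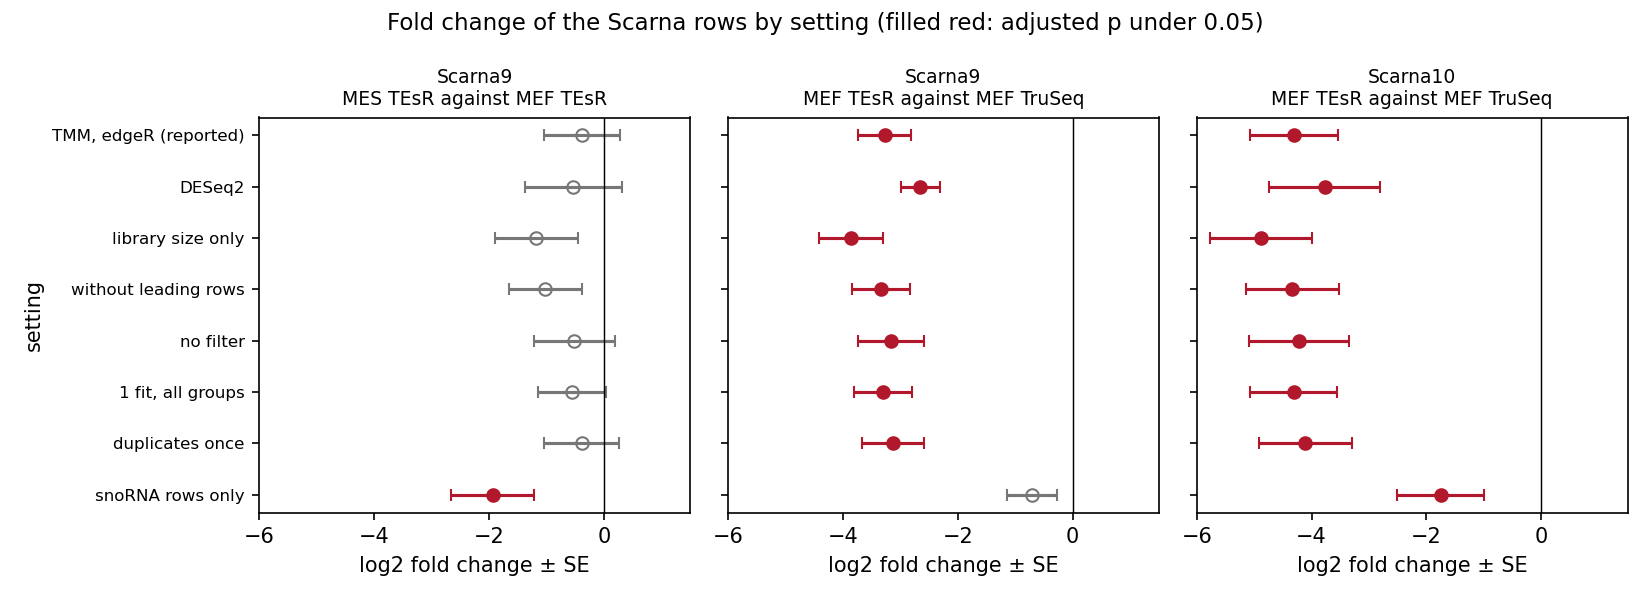
Log2 fold change with its standard error (horizontal axis) under 8 settings (rows) for Scarna9 between MES and MEF TEsR, Scarna9 between MEF TEsR and TruSeq and Scarna10 between MEF TEsR and TruSeq; filled red points have an adjusted p under 0.05. Every point lies below 0, and the fit on snoRNA rows only shifts Scarna9 from -0.39 to -1.94 in the first panel and from -3.28 to -0.71 in the second.

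The spliceosomal RNAs that scaRNAs modify were also low in TEsR. All snRNA rows together gave 6449 and 7251 CPM in TruSeq, 22.8 and 32.0 in MES and 4.25 to 14.3 in MEF TEsR. Rnu5g, the U5 target of Scarna10, held 5027 and 4279 counts in TruSeq, 1 count in mmS2 and 0 in the 5 other TEsR libraries. Rnu2-10, 1 of 2 rows named for U2, the target of Scarna9, held 2 counts in TruSeq B and 0 elsewhere. That row was thus hardly counted by either method. Rows were picked by name here, while 1384 rows are typed as snRNA, of which 50 and 45 held counts in TruSeq A and B. Which RNAs the other snRNA rows belong to was not examined, so the level of U2 as a whole cannot be read from this row. The 5 U1 rows held 1 count in all, the 3 U6 rows held 0 counts, and U4 has no row by name. Rnu7, the U7 RNA of histone mRNA 3′ end processing, held 1919 and 2986 counts in TruSeq, 1 in pmS2 and 0 in the 5 other TEsR libraries. The minor spliceosome RNA Rnu12 held 1055 and 1732 counts in TruSeq, 10 in mmS1, 21 in pmS1, 3 and 1 in MES and 0 in mmS2 and pmS2. Rnu11 held 306 and 594 counts in TruSeq and 0 in TEsR. Rnu5g, Rnu7, Rnu12 and Rnu11 were each called lower in MEF TEsR than in TruSeq (edgeR, adjusted p from 2.46e-08 to 1.45e-04), as were 55.7% of all rows, and Rnu5g, Rnu7 and Rnu11 passed the filter on low counts only through TruSeq, where they are high.

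Named nucleolar guides, which modify ribosomal RNA with the same boxes, gave a mixed picture. Of 83 C/D box rows named Snord, 78 were tested between the fibroblast methods, and 10 were called higher and 55 lower in TEsR, with a median log2 fold change of -3.25. The share called lower was 70.5%, beside 55.7% over all rows and 76.1% over the 218 snoRNA rows, and the share called higher was 12.8%, beside 32.4% and 10.6%. The median stayed negative in every setting and was -0.77 among snoRNA rows only, with 26 called higher and 37 lower. These are 33.3% and 47.4% of the Snord rows, beside 23.3% and 57.7% of the 227 snoRNA rows tested in that setting. Of 52 H/ACA rows named Snora, 30 were tested, and 0 were called higher and 26 (86.7%) lower. These rows passed the filter mainly through TruSeq, since their summed level was 23.6 to 59.4 CPM in MEF TEsR against 1109 and 1299 in TruSeq, so the filter bears on that count. With no filter, 40 were tested, 0 were called higher and 31 (77.5%) lower. In that setting 246 of all 809 rows and 65.3% of the 308 snoRNA rows were called lower. All 40 Snora rows had counts in TruSeq but only 23 had any in MEF TEsR, so dropping the filter does not remove this limit. Scarna9, with -3.28, was close to the Snord median, and a difference from the list was not tested. Between MES and MEF TEsR, 44 of 71 Snord rows tested were called higher in MES and 10 lower, with a median of 2.73. Over all 273 rows 43.6% were called higher, and over the 150 snoRNA rows 62.0%, the same share as among the Snord rows tested. Of the Snora rows, 6 passed the filter there, and 5 (83.3%) were called higher and 0 lower. All Snora rows summed to 23.6 to 59.4 CPM in MEF TEsR against 8672 and 10135 in MES, mostly Snora21, so the filter bears on that count. With no filter, 34 were tested, and 14 (41.2%) were called higher and 0 lower. In that setting 159 of all 611 rows and 44.6% of the 258 snoRNA rows were called higher. Counts were held by 31 Snora rows in MES and 23 in MEF TEsR, so dropping the filter does not remove this limit. The medians of both lists were positive in every setting, and among snoRNA rows only 34 Snord rows were called higher and 22 lower. Those shares, 47.9% and 31.0%, are close to the 48.0% and 31.3% of the 150 snoRNA rows tested in that setting. Snora21, an H/ACA guide, held 27723 and 22744 counts in MES and 17 to 159 in MEF TEsR, and was 98.2% and 98.0% of all Snora counts in MES.

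Some other scaRNA genes were covered in part by miRNA rows. Among the 5518 rows, 5 typed as miRNA overlap, on the same strand, genes that the annotation types as scaRNA, a set found by overlap of coordinates after the files were seen. They are mir-1843b in Scarna3a (65 of its 66 bases), mir-6516 in Gm26083 (88 of 110 bases), mir-1839 in a scaRNA named Mir1839 (66 of 73 bases) and, over their whole length, mir-1843a in Scarna3b and mir-3069 in Scarna13. The counts cannot be assigned to the miRNA or to the scaRNA. Summed over the 5 rows they were 3 and 0 in MES, 9, 3, 18 and 9 in the MEF TEsR libraries mmS1, mmS2, pmS1 and pmS2, and 205 and 186 in TruSeq. RefSeq gives 9 mature miRNAs for these 5 rows, all 9 inside the scaRNA gene and with 9 different seeds (bases 2 to 8). The 5′ arms of mir-1843b and mir-1843a are shown because their genes are alike, with 85.7% of aligned bases identical between Scarna3a and Scarna3b. Capitals mark the seed, and the miRNAs are at chr1:159340362-159340382 (plus strand) and chr12:80391654-80391674 (minus strand) of GRCm38.
mmu-miR-1843b-5p: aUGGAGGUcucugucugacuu
mmu-miR-1843a-5p: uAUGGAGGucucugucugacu

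The sequences shown above differ only in their end bases, so their seeds overlap, and how reads that fit both rows were assigned was not examined. In TruSeq, mir-1843b had the higher mean CPM of this pair, 15.4 ± 0.978 against 2.36 ± 0.181 (SD, n = 2), whereas in MEF TEsR the means were 0.847 ± 0.717 and 0.931 ± 0.513 (SD, n = 4). mir-1843b held 0 counts in both MES libraries, 4, 0, 6 and 2 in the MEF TEsR libraries in the order above, and 144 and 124 in TruSeq. It was called lower in MEF TEsR than in TruSeq, with a log2 fold change of -3.65 ± 0.74 (SE) in edgeR and an adjusted p of 4.34e-04, and by mean CPM it was at least 14.0-fold lower in MES than in TruSeq. mir-1843a held 0 counts in MES, 3, 1, 5 and 4 in MEF TEsR, and 20 and 21 in TruSeq. Its mean CPM in TruSeq was 2.53 times that in MEF TEsR (counting interval 1.36 to 5.25), without a test since its counts did not pass the filter there. mir-3069 held 1 and 0 counts in MES, 0 in all MEF TEsR libraries, and 24 and 26 in TruSeq. It was called lower in both TEsR groups than in TruSeq (edgeR, adjusted p = 0.0460 for MES and 4.12e-04 for MEF). Both mir-3069 and mir-1843b passed the filter on low counts only through TruSeq, where they are high. Over all rows, 50.0% were called lower in MES than in TruSeq and 55.7% lower in MEF TEsR than in TruSeq. mir-6516 held 10 and 13 counts in TruSeq and mir-1839 held 7 and 2, with at most 4 counts in any TEsR library. In MEFs mir-1839 had a mean CPM of 0.512 ± 0.451 by TEsR (SD, n = 4) and of 0.509 ± 0.385 by TruSeq (SD, n = 2).

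**Figure D4:**
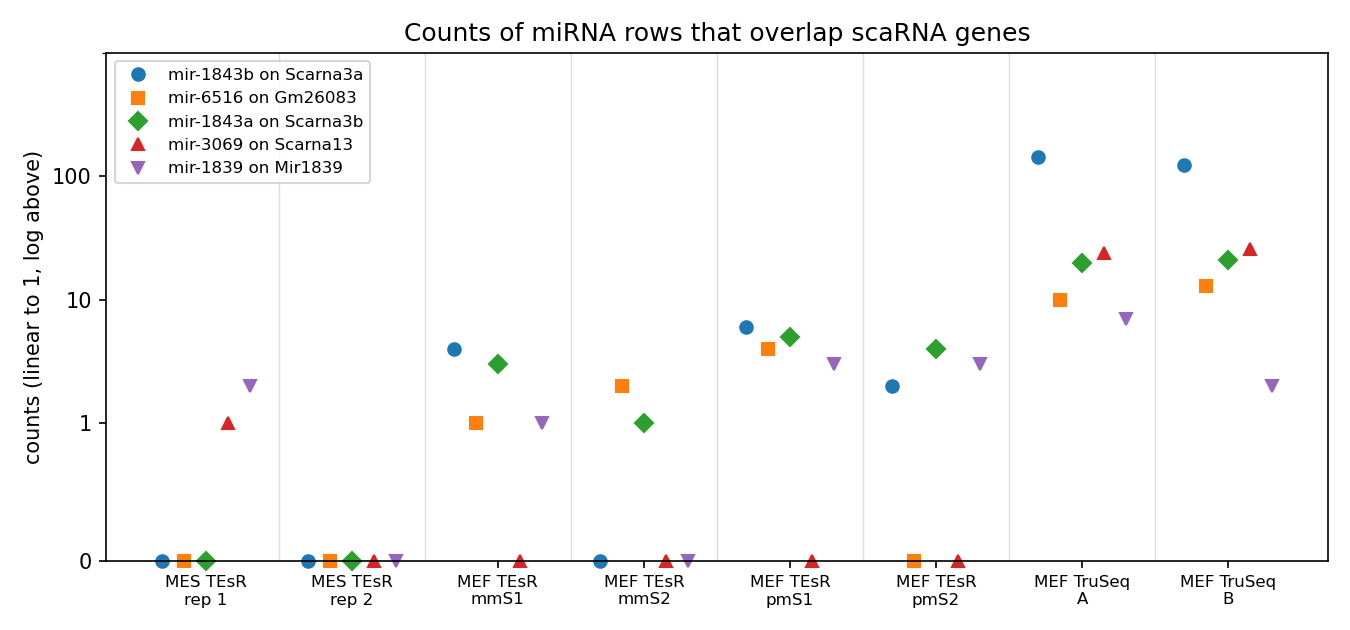
Counts (vertical axis, linear up to 1 and logarithmic above) of the 5 miRNA rows that overlap scaRNA genes, by library. mir-1843b reaches 144 and 124 counts in TruSeq against at most 6 in TEsR, and the other rows stay at or below 26.

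Rows with the most similar pattern were ranked by the Pearson correlation of log2(CPM + 1) with each guide over the 8 libraries, among 375 rows that passed the filter on low counts. The points share 2 methods, and both guides were highest in the TruSeq libraries. The highest values for Scarna9 were 0.976 with Gm26202, 0.971 with Snord98 and Gm24134, 0.969 with Snord52 and 0.966 with mir-1843b, against a median of 0.501 over all rows. For Scarna10 they were 0.992 with Snord38a, 0.984 with Snord47, 0.982 with Rnu12 and 0.978 with SNORA50 and Gm22711, a pair of overlapping rows, against a median of 0.543. The share of rows above 0.95 was 2.94% for Scarna9 and 16.0% for Scarna10. The guides correlated with each other at 0.941.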

How the data were processed

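Per the file headers, each deposited value is a read count, a whole number without normalization, for 1 small RNA row and 1 library. cutadapt, BWA 0.7.12, SAMtools 1.2.1, bedtools 2.25.0 and mm10 are named in the submitters' processing notes, while neither the use of strand nor the tag q10 in the TEsR column names is explained there. The TruSeq table is called a control by its name, whereas the sample titles say induced, and groups follow the titles. Both tables hold the same 5518 rows. Of these, 5453 were matched by Ensembl identifier to the GENCODE vM21 annotation of GRCm38, and 5445 had the same coordinates. Gene types, introns and sequences come from there, and mature miRNAs and shorter gene entries from RefSeq (GRCm38).

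Each comparison was fitted on the 2 groups compared over all rows with the robust quasi-likelihood test of edgeR 4.0.16 (R 4.3.3), a filterByExpr minimum count of 10 and a threshold of 0.05, and tested on simulated data. Alternatives were DESeq2 1.42.0, other scalings, no filter, 1 fit over all groups, snoRNA rows only, duplicate rows counted once and each library left out. Overlapping rows were counted more than once, and 30 rows with counts were duplicates. Libraries of a group differed beyond sampling noise, with chi-square values of 12.0 to 476 per degree of freedom, so none was counted as a duplicate. CPM use library totals. The members, the lists and the rule for named RNAs (all Scarna rows, up to 4 members a list by summed CPM, and the 5 rows most correlated with each guide) were chosen with earlier results of these data known. Induced and uninduced MEFs were not compared, and 1 planned sequence comparison is not reported here.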

Additional observations from a re-analysis of the deposited data

How the results depend on the processing

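Both calls of Scarna10 and the call of Scarna9 between MES and TruSeq kept their direction and side of the threshold in all 11 or 13 alternatives, with Scarna10 between MEF TEsR and TruSeq closest to it among snoRNA rows only (edgeR adjusted p = 0.0496). Scarna10 had at most 5 counts in a TEsR library and was kept by the filter only through TruSeq. Its direction was thus set in advance, and these alternatives could not test it. Fitting snoRNA rows only changed both other results of Scarna9: MES over MEF TEsR passed at -1.94 (adjusted p = 0.00976) and MEF TEsR over TruSeq did not at -0.71 (adjusted p = 0.139). It also left 119, 187 and 184 rows called (MES over MEF TEsR, MES over TruSeq, MEF TEsR over TruSeq) in place of 205, 305 and 310, with 150, 236 and 227 rows tested. Leaving out each library moved Scarna9 between -1.96 and 0.30 in MES over MEF TEsR, reversed at 0.30 without MES replicate 2; between -5.18 and -2.75 in MES over TruSeq; and between -3.61 and -2.84 in MEF TEsR over TruSeq. Where an arm had 1 library left, it was assumed to vary like the other group. The median of all rows in MES over MEF TEsR was 0.45 as reported, 0.32 with DESeq2, -0.38 by library size only and -0.18 without the leading rows; in MES over TruSeq it was -1.06, -0.65, -2.42 and -1.68, and in MEF TEsR over TruSeq -2.42, -1.78, -3.02 and -2.10. By library size only, MES over TruSeq gave 101 rows higher and 219 lower in place of 129 and 176. The cause of these shifts was not tested. Without the 2 leading rows of each library, mean CPM of Scarna9 was 22.1 in MES, 45.4 in MEF TEsR and 458 in TruSeq, and that of Scarna10 was 3.22 in MEF TEsR and 68.6 in TruSeq. No paired analysis was possible because the MEF TEsR and TruSeq columns carry no replicate numbers that match those of another group. The comparisons of induced with uninduced MEFs were not run. At most 5 counts of Scarna10 in a TEsR library leave its level there unresolved.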
